A study of Mus musculus with 24 samples.

Results

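The heat shock chaperones described here are 10 genes: Hspa1a, Hspa1b, Hspa8, Hsph1, Dnajb1, Dnaja1, Hsp90aa1, Hspb1, Hspd1 and Hspe1. They were taken by gene symbol from the 14995 genes of the deposited tables, and all 10 were among the 13121 genes with enough reads to be tested. The set was chosen by symbol with the measured levels and fold changes of these genes in the same 3 groups of livers already known, so that their differences between groups are given as a description, without p-values.

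Heat shock proteins hold unfolded proteins, help them to fold and keep them from clumping. HSP70 proteins bind short exposed stretches of a client protein, J-domain proteins deliver clients and stimulate the HSP70 ATPase, and HSP110 proteins exchange the nucleotide so that the client is released. HSP90 acts later on signalling proteins, small heat shock proteins hold clients without ATP, and the mitochondrial chaperonin folds imported proteins in a closed chamber. Many of these genes are switched on by heat shock factor 1 (HSF1), which binds repeats of GAA and TTC in promoters, and in mouse liver several of them are known to change with feeding, body temperature and time of day.

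Messenger RNA was measured in 24 mouse livers collected 20 weeks after surgery in a study of obese mice. The groups were RYGB (Roux-en-Y gastric bypass, a stomach and intestine bypass that lowers body weight), WM (calorie restriction to match the weight of the RYGB group) and Sham (a sham operation), with 8 libraries each. The labels give no strain, sex, age, diet, fasting state, hour of collection or processing batch. Each library is named by its group and the number in its label. Since separate animals are not stated outright, p-values measure only the spread between these samples, which may be technical. The deposited values are counts of reads from the 3′ ends of transcripts, with 14002193 to 19958019 counts per RYGB library, 14208021 to 22766612 per WM library and 13659647 to 17391377 per Sham library. Levels are given as CPM, counts scaled to a common library size with TMM factors, and they are not compared between genes. In whole tissue, fewer cells of a type and less RNA per cell cannot be told apart.

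The 2 HSP70 genes that are usually silent without stress, Hspa1a and Hspa1b, lie next to each other on chromosome 17, at chr17:34969190-34972156 and chr17:34956436-34959238 on the minus strand (GRCm38, GENCODE M21), with 9952 bases between them. In the RefSeq promoter table (GRCm38.p6), 247 of the 250 bases before their starts are identical. The 250 bases before the start of Hspa1b are shown because Hspa1b differed most between RYGB and WM livers, and those before Dnajb1 because its window held none of the motifs searched. Capitals mark matches to GAANNTTC, to TTCNNGAA, or to a triple (GAANNTTC followed by NNGAA, or TTCNNGAA followed by NNTTC) with at most 1 of its 9 fixed letters different.
Hspa1b, chr17:34959239-34959488, minus strand: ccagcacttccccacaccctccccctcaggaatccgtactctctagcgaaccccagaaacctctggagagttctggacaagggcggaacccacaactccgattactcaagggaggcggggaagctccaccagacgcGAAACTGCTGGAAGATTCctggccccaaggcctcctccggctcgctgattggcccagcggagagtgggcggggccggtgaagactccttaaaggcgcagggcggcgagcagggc
Dnajb1, chr8:83607925-83608174, plus strand: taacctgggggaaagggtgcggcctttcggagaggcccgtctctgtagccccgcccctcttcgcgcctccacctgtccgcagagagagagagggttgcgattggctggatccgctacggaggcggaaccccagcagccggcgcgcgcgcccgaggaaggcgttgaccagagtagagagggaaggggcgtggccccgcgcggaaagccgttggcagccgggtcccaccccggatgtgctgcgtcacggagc

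The capitals of Hspa1b lie 114 to 97 bases before its start, and the same letters stand at the same distance before Hspa1a. For the other members with a match, 30 bases around it are shown, since the match is what they share. In the second Hsph1 stretch the capitals lie after the start, at bases 32 to 49 from 1 start and 11 to 28 from the other. That stretch holds the exact triple of Hsph1.
Hsph1, chr5:149636346-149636375, minus strand: gaatctTTCTCGAAGGCTCGAGAAgaagga
Hsph1, chr5:149636287-149636316, minus strand: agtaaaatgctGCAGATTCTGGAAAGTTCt
Dnaja1, chr4:40722330-40722359, plus strand: aaaaaaagcCTCTAGAAAATTCtacgaggc
Hspb1, chr5:135887801-135887830, plus strand: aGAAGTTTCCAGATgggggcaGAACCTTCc
Hspe1, chr1:55088053-55088082, plus strand: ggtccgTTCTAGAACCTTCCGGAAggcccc

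The RefSeq table held promoters for 8 of the 10 members, all but Hspa8 and Hsp90aa1, as 13 windows of 250 bases before and 50 bases after a start. Each pair motif is its own reverse complement and the triples are reverse complements of each other, so both strands were searched, and a triple contains both pair motifs, which overlap. GAANNTTC stood in 8 of these 13 windows, those of 7 members, and in 7.86% of all 32851 windows of the table. TTCNNGAA stood in 4 of the 13, those of 3 members, and in 8.52% of all windows. An exact triple stood in 4 of the 13, those of Hsph1, Hspd1 and Hspe1, and in 0.603% of all windows. A triple with at most 1 letter different stood in 8 of the 13, with all of the 8 members but Dnajb1 among them, and in 7.22% of all windows. Windows of 1 gene, and those of Hspd1 and Hspe1, share bases. Hspd1 and Hspe1 are transcribed away from each other on chromosome 1, and the 30 bases printed for Hspe1 lie, on the other strand, before a second start of Hspd1. A match is a run of letters and says nothing about binding in these livers.

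Hspa1b and Dnajb1 were higher in WM livers than in RYGB livers, in every library of Hspa1b and in nearly every library of Dnajb1. All 8 WM livers lay above the Sham median for both, and for Hspa1a, Hsph1, Dnaja1, Hspa8 and Hspe1. All 8 RYGB livers lay above the Sham median for Hspa8, Dnaja1, Hspe1, Hsph1 and Dnajb1, and 6 of 8 for Hspa1b. Hspd1, the partner of Hspe1, and Hsp90aa1 lay at overlapping levels in the 3 groups, and Hspb1 was lower in most RYGB and WM livers than the Sham median. One control library, Sham 14, held the highest Sham value of 9 of the 10 genes, all but Hspb1, and most Sham ranges below end with it.

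**Figure D1:**
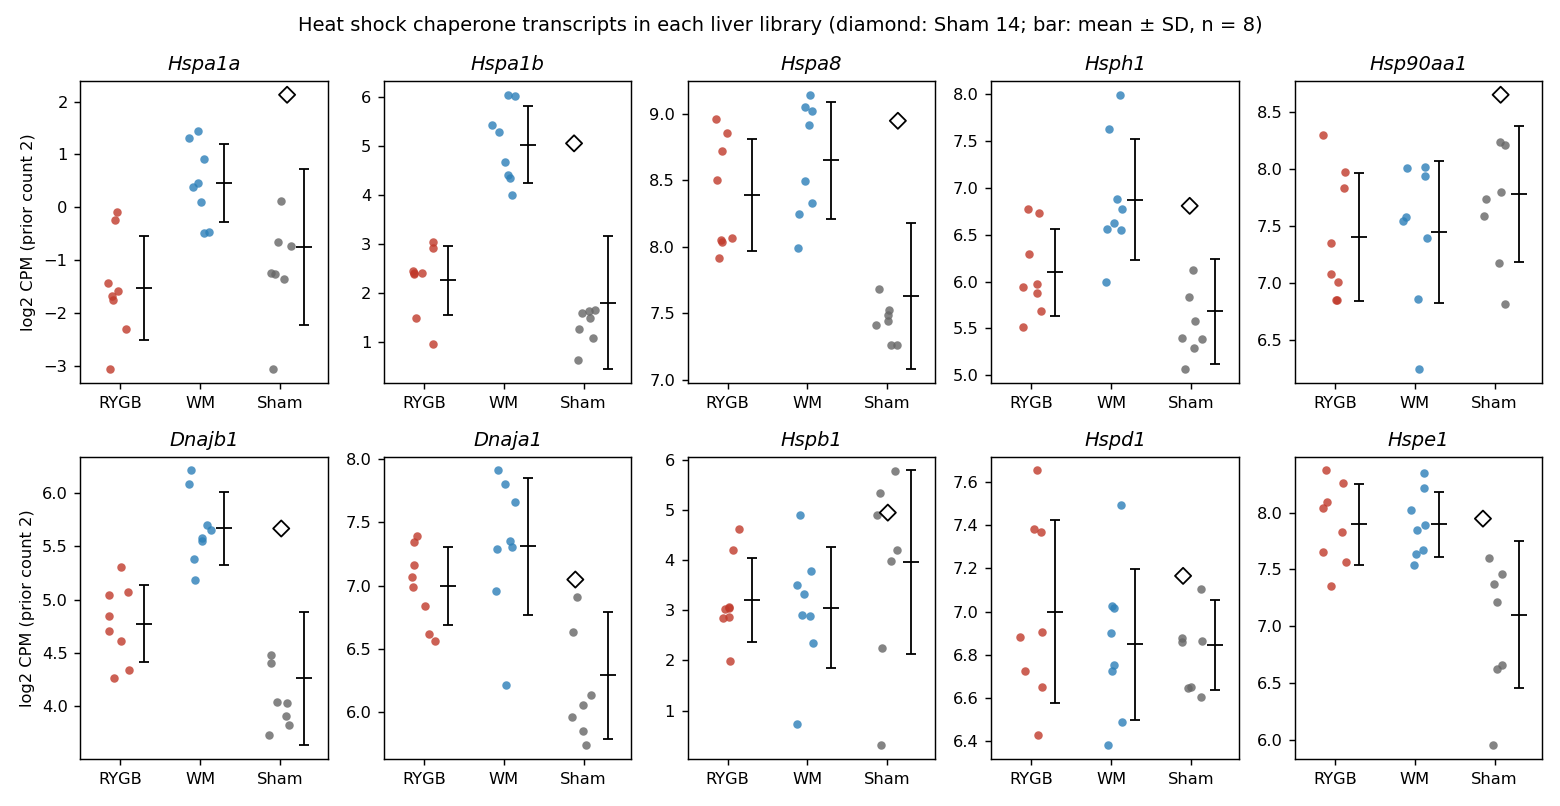
The level of each heat shock chaperone (log2 CPM with a prior count of 2, vertical axis) is plotted for the 8 RYGB, 8 WM and 8 Sham libraries, with 1 point per library and a bar for the group mean ± SD. The diamond is Sham 14, which lies above the other 7 Sham libraries for every gene but Hspb1. For Hspa1b the WM points lie above all RYGB points.

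Hspa1a, one of the inducible HSP70 genes, was close to the detection limit, with 0 to 86 counts per library. Its level had a lowest, median and highest value of 0, 0.204 and 0.821 CPM in RYGB livers, 0.598, 1.22 and 2.59 CPM in WM livers and 0, 0.393 and 4.25 CPM in Sham livers. The groups overlapped, with all 8 RYGB livers below the WM median and Sham 14 above every other library. RYGB 22 and Sham 6 had no count, which allows up to 3 counts, or 0.191 and 0.223 CPM (counting error only). The log2 fold change (± SE) was -1.51 ± 0.70 for RYGB against Sham, 0.66 ± 0.65 for WM against Sham and -2.17 ± 0.70 for RYGB against WM. Without Sham 14, Hspa1a had a log2 fold change of -0.39 for RYGB against Sham and 1.77 for WM against Sham, and it then passed the threshold for WM against Sham.

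Hspa1b encodes the same inducible HSP70 protein or nearly so. Its level had a lowest, median and highest value of 1.82, 5.17 and 8.07 CPM in RYGB livers, 15.8, 32.1 and 65.9 CPM in WM livers and 1.42, 2.78 and 33.1 CPM in Sham livers. The RYGB and WM livers did not overlap, the only such case among the members, and the highest Sham value was Sham 14, against 3.02 CPM in the next Sham liver. All 8 WM livers and 6 of 8 RYGB livers lay above the other 7 Sham livers. In the fit, the log2 fold change of Hspa1b was -2.85 ± 0.54 for RYGB against WM and 2.55 ± 0.53 for WM against Sham, which became 3.90 ± 0.35 without Sham 14. For RYGB against Sham it was -0.30 ± 0.51, and 1.05 ± 0.32 without Sham 14, so that 1 control library set its sign. With the counts of both genes summed, the values were -2.82 ± 0.53 for RYGB against WM, 2.41 ± 0.52 for WM against Sham and -0.41 ± 0.51 for RYGB against Sham.

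Hspa8 (chr9:40800984-40810087) is the HSP70 gene that cells express all the time. Its level had a lowest, median and highest value of 241, 316 and 498 CPM in RYGB livers, 254, 422 and 566 CPM in WM livers and 154, 176 and 494 CPM in Sham livers. All RYGB and all WM livers lay above 7 of the 8 Sham livers, whose highest value apart from Sham 14 was 205 CPM, while RYGB and WM livers overlapped over most of their range. Hspa8 had a log2 fold change of 0.70 ± 0.24 for RYGB against Sham, 0.96 ± 0.24 for WM against Sham and -0.26 ± 0.24 for RYGB against WM. Without Sham 14 it was 1.00 ± 0.20 for RYGB against Sham and 1.26 ± 0.20 for WM against Sham.

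Hsph1 (chr5:149614287-149636376) encodes an HSP110 protein, a nucleotide exchange factor for HSP70. It measured 45.4, 62.0 and 109.5 CPM in RYGB livers, 63.7, 104 and 255 CPM in WM livers and 33.3, 44.8 and 112 CPM in Sham livers (lowest, median, highest). All 3 groups overlapped; WM 1 and WM 27 stood highest, and 7 of 8 WM livers lay above every Sham liver but Sham 14. For Hsph1 the log2 fold change was 0.37 ± 0.27 for RYGB against Sham, 1.22 ± 0.27 for WM against Sham and -0.85 ± 0.27 for RYGB against WM.

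Dnajb1 (chr8:83608193-83612653) encodes the main inducible J-domain partner of HSP70 in the cytosol. It measured 19.1, 27.3 and 39.5 CPM in RYGB livers, 36.3, 49.0 and 74.1 CPM in WM livers and 13.1, 16.3 and 50.7 CPM in Sham livers (lowest, median, highest). RYGB 22 was the one RYGB liver that reached the WM range, and all WM livers and 6 of 8 RYGB livers exceeded the 22.1 CPM of the second highest Sham liver. Its fitted log2 fold change was 0.41 ± 0.23 for RYGB against Sham, 1.30 ± 0.24 for WM against Sham and -0.89 ± 0.24 for RYGB against WM. Without Sham 14 it was 0.73 ± 0.18 for RYGB against Sham.

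Dnaja1 (chr4:40722150-40737149) encodes another J-domain partner of cytosolic HSP70. It measured 94.4, 130.3 and 168 CPM in RYGB livers, 74.1, 161 and 240.3 CPM in WM livers and 53.3, 68.2 and 132 CPM in Sham livers (lowest, median, highest). All 8 RYGB livers lay above the Sham median, 4 of them above every Sham liver, while WM 20 and WM 25 were the WM livers that did not exceed every Sham liver. Dnaja1 had a log2 fold change of 0.65 ± 0.22 for RYGB against Sham, 1.02 ± 0.22 for WM against Sham and -0.37 ± 0.22 for RYGB against WM.

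Hsp90aa1 (chr12:110690605-110702728), the inducible cytosolic HSP90 gene, measured 115, 149.6 and 316 CPM in RYGB livers, 75.6, 189 and 258 CPM in WM livers and 112, 218 and 402 CPM in Sham livers (lowest, median, highest). The 3 groups covered much the same range. For Hsp90aa1 the log2 fold change was -0.38 ± 0.27 for RYGB against Sham, -0.33 ± 0.27 for WM against Sham and -0.05 ± 0.27 for RYGB against WM.

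Hspb1 (chr5:135887919-135889563) encodes the small heat shock protein HSP25. It measured 3.82, 8.07 and 24.4 CPM in RYGB livers, 1.53, 8.65 and 29.9 CPM in WM livers and 1.12, 23.9 and 54.5 CPM in Sham livers (lowest, median, highest). The Sham livers spread over the whole range, and 7 of 8 RYGB livers and 7 of 8 WM livers lay below the Sham median. Hspb1 had a log2 fold change of -1.19 ± 0.52 for RYGB against Sham, -1.19 ± 0.52 for WM against Sham and -0.01 ± 0.52 for RYGB against WM.

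Hspd1 (chr1:55077835-55088243) and Hspe1 (chr1:55088132-55091307) encode the ring and the lid of the mitochondrial chaperonin and overlap at their starts. Hspd1 measured 86.2, 119 and 201 CPM in RYGB livers, 83.3, 114 and 180.0 CPM in WM livers and 97.2, 116 and 143 CPM in Sham livers (lowest, median, highest). Its log2 fold change was 0.20 ± 0.18 for RYGB against Sham, 0.03 ± 0.18 for WM against Sham and 0.17 ± 0.18 for RYGB against WM, and the groups overlapped. Hspe1 measured 164, 245 and 331 CPM in RYGB livers, 185, 233 and 326 CPM in WM livers and 61.8, 156 and 247 CPM in Sham livers. All RYGB and all WM livers lay above the Sham median, RYGB and WM livers covered the same range, and Sham 17 stood lowest. The log2 fold change of Hspe1 was 0.72 ± 0.22 for RYGB against Sham, 0.70 ± 0.22 for WM against Sham and 0.01 ± 0.21 for RYGB against WM.

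**Figure D2:**
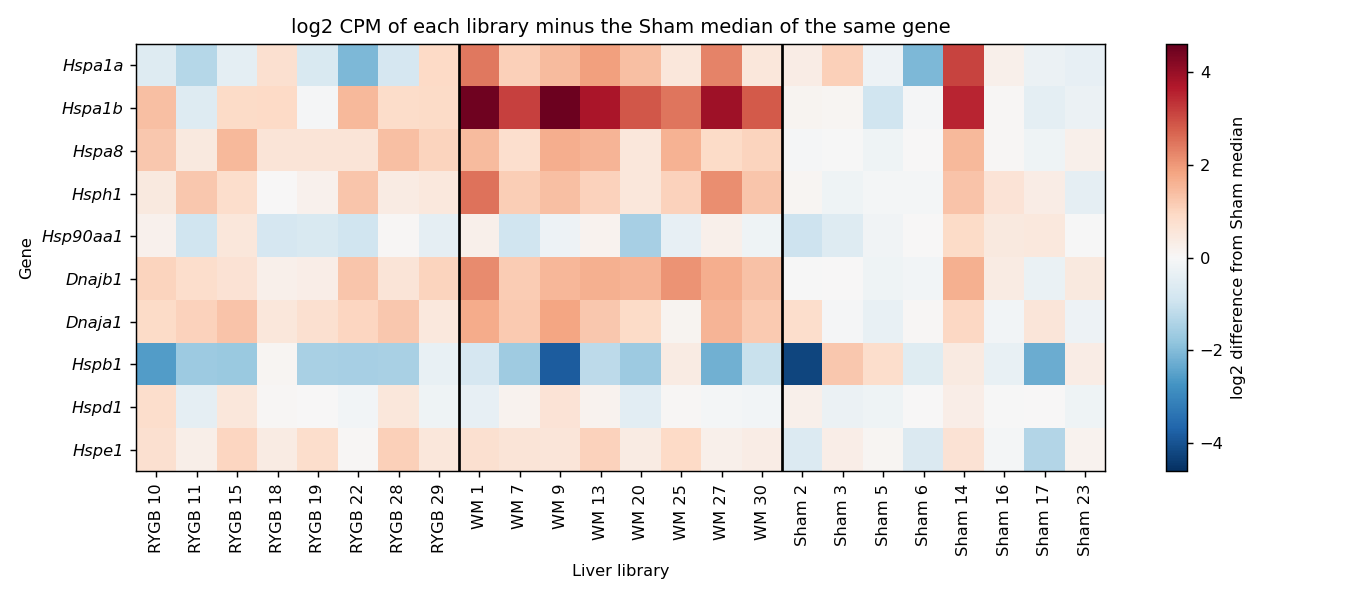
Each cell is the log2 CPM of 1 gene (rows) in 1 liver library (columns, RYGB then WM then Sham) minus the median of the 8 Sham libraries for that gene, on a scale that spans the data. Hspa1b is high across the 8 WM libraries and in Sham 14, and Hspb1 spans a wide range within Sham.

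Some of these genes share sequence with others, which bears on their counts. Of the 50-base stretches in the last 500 bases of the coding transcripts, 0% of those of Hspa1a, Hspa1b, Hsph1 and Dnajb1 occur in another gene of GENCODE M21, which holds for Hspa1a and Hspa1b against each other too. The share was 68.6% for Hspa8, 53.2% for Hspe1, 39.2% for Hspb1, 39.1% for Dnaja1, 29.8% for Hspd1 and 24.7% for Hsp90aa1, through copies such as Hspe1-ps1 and Hsp25-ps1. How reads that match several genes were counted is not given in the sources used here, so the counts of these 6 genes are uncertain to that extent. Gm20481 lies on the other strand of Hspa1a, and Gm6297 and Smu1 on that of Dnaja1, and without a stated strand setting their reads cannot be told apart from those of these members.

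**Figure D3:**
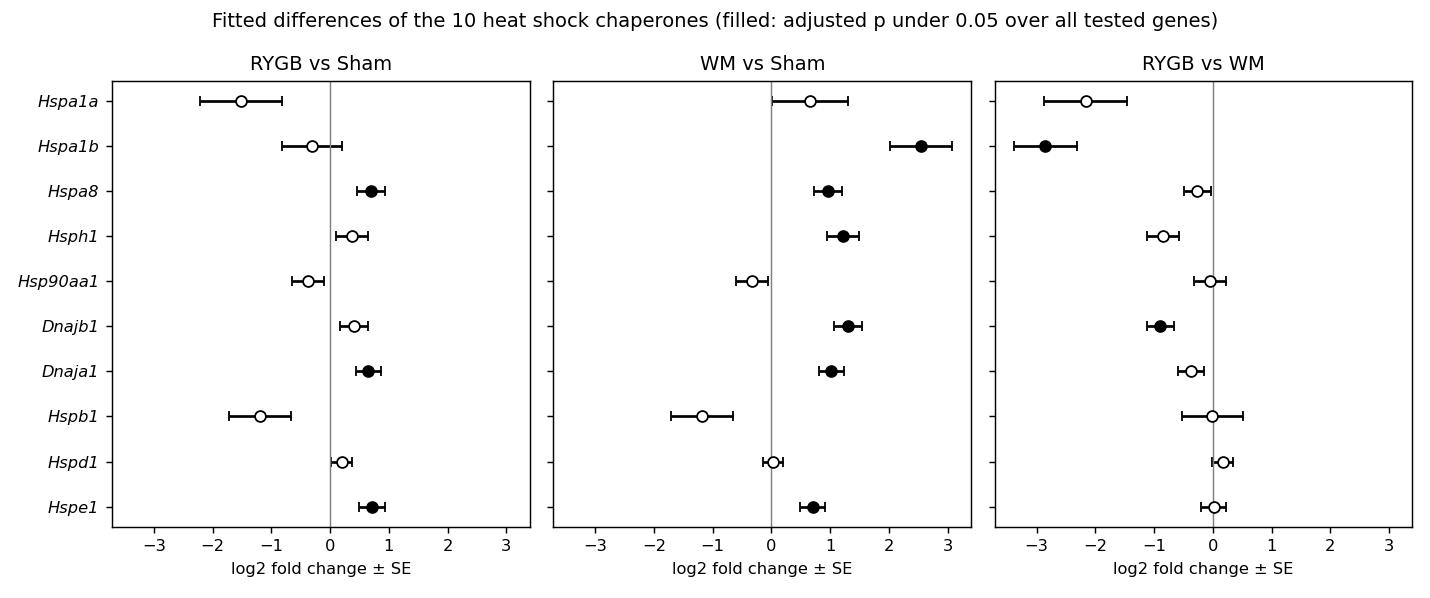
The fitted log2 fold change ± SE (horizontal axis, 24 libraries) of each of the 10 genes (rows) is plotted for RYGB against Sham, WM against Sham and RYGB against WM. Filled points have an adjusted p under 0.05 over all tested genes: 3 genes for RYGB against Sham, 6 for WM against Sham and 2 for RYGB against WM. With library totals in place of the scaling the 3 genes past the threshold for RYGB against Sham are instead Hspb1, Hsp90aa1 and Hspa1a, all lower.

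In the fit across all genes (edgeR quasi-likelihood, adjusted p under 0.05), 6 of the 10 members passed the threshold as higher in WM than in Sham livers and 0 as lower, where 31.4% of all tested genes passed (16.5% higher, 15% lower). The 6 were Hspa1b, Hspa8, Hsph1, Dnajb1, Dnaja1 and Hspe1. For RYGB against Sham, 3 members passed as higher, Hspa8, Dnaja1 and Hspe1, and 0 as lower, where 23.7% of all tested genes passed (12.7% higher, 11% lower). For RYGB against WM, Hspa1b and Dnajb1 passed as lower and 0 members as higher, where 1.49% of all tested genes passed (1.06% higher, 0.434% lower). At an unadjusted p under 0.05 the counts were 5 for RYGB against Sham, 7 for WM against Sham and 4 for RYGB against WM. The members added were lower: Hspa1a and Hspb1 for RYGB against Sham, Hspb1 for WM against Sham, and Hspa1a and Hsph1 for RYGB against WM. The share of all genes at that threshold was not taken, so these counts have no background beside them. Groups that did not overlap at all were found for 1 member, Hspa1b in RYGB against WM, where this held for 0.358% of all tested genes (0.282% higher, 0.0762% lower). It held for 0 members and 5.39% of genes in RYGB against Sham (3.28% higher, 2.1% lower), and for 0 members and 5.82% of genes in WM against Sham (3.15% higher, 2.68% lower). The median log2 fold change over the members was 0.28 for RYGB against Sham, 0.83 for WM against Sham and -0.32 for RYGB against WM, and that over all tested genes was -0.015, -0.0079 and -0.016 in the same order. The comparisons share libraries, and since the members were chosen with these results known, the counts are no support for a change of the set.

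These counts moved with single libraries and with the scaling. Without Sham 14, 5 members passed for RYGB against Sham (Hspa1b, Hspa8, Dnajb1, Dnaja1 and Hspe1) and 7 for WM against Sham, with Hspa1a added. Leaving out Sham 3, Sham 5, Sham 6, Sham 16, RYGB 15 or RYGB 28 left 1 member for RYGB against Sham, Hspe1. For RYGB against WM, Hspa1b passed with any of the 24 libraries left out, and Dnajb1 with 8 of the 24. With library totals in place of the TMM scaling, the median log2 fold change of all genes moved to -0.36 for RYGB against Sham and -0.33 for WM against Sham, and the calls split into 754 higher and 3534 lower for RYGB against Sham, beside 1666 and 1443 with TMM. For WM against Sham they split into 1049 higher and 3637 lower, beside 2161 and 1964 with TMM. Under it Hspa8, Dnaja1 and Hspe1 had log2 fold changes of 0.36, 0.28 and 0.39 for RYGB against Sham and did not pass, Hspd1 turned to -0.16 (-0.28 for WM against Sham), and Hspb1, Hsp90aa1 and Hspa1a passed as lower. For WM against Sham, 5 of the 6 members stayed past the threshold under library totals, all but Hspe1, and Hspb1 passed as lower.

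Libraries differed in other ways that touch these values. The label of liver tissue was matched by hepatocyte markers, all 8 of 8 in the table, whose summed level was 81610 to 139039 CPM in RYGB livers (median 129070), 73471 to 131603 in WM livers (median 92824) and 32008 to 74598 in Sham livers (median 55484). Macrophage markers, 10 of 10 in the table, summed to 201 to 1012 CPM in RYGB livers, 232 to 733 CPM in WM livers and 95.4 to 395 CPM in Sham livers. Of these 10, 7 rose and 1 fell in RYGB livers against Sham, beside 23.7% of all genes called. In WM livers 5 rose and 1 fell against Sham, beside 31.4% of all genes. Stellate and matrix markers, 10 of 10, summed to 249 to 348 CPM in RYGB livers, 195 to 371 CPM in WM livers and 379 to 786 CPM in Sham livers, and no marker of these 3 lists was at 0 throughout a group. Their part in the members' differences was not tested. Pancreatic acinar markers, 18 of 23 in the table, summed to 31.0 to 3382 CPM in RYGB livers, 71.3 to 188 CPM in WM livers and 10.8 to 1488 CPM in Sham livers. Those outside the tested genes summed to 3056 CPM in RYGB 18, 3025 CPM in RYGB 19 and 1369 CPM in Sham 17, and to at most 26.1 CPM in the other 21 libraries. Without these 3 libraries Hspa8, Dnaja1 and Hspe1 still passed for RYGB against Sham and Hspb1 passed as lower, while Dnajb1 no longer passed for RYGB against WM. Without them and Sham 14, 6 members passed for RYGB against Sham, with Hsph1 and Dnajb1 among them, and Hspa1b and Dnajb1 for RYGB against WM.

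Sham 14 did not stand apart in depth, with 17360492 counts. Its hepatocyte marker sum of 49261 CPM lay inside the Sham range, its stellate and matrix, endothelial and macrophage marker sums of 379, 46.6 and 95.4 CPM were the lowest of the Sham livers, and its summed level of circadian clock genes, 557 CPM, was the highest. Its ratio to the median of the other 7 Sham livers was 13.9 for Hspa1a, 12.4 for Hspa1b, 3.13 for Dnajb1, 2.85 for Hspa8, 2.67 for Hsph1, 1.99 for Dnaja1, 1.88 for Hsp90aa1, 1.69 for Hspb1, 1.67 for Hspe1 and 1.24 for Hspd1. Hspa1a and Hspa1b had the highest ratios and the mitochondrial pair the lowest. What set this library apart was not tested.

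Whether the members vary together from liver to liver within a group does not depend on the group differences. Hspa1b was compared with each other member, and Hspd1 with Hspe1, within each group (30 relations, 8 livers each, log2 CPM, two-sided exact permutation tests, Benjamini-Hochberg adjustment over the 30). Hspa1b and Dnaja1 varied together in WM livers, with Pearson r = 0.88 (exact p = 0.000595, adjusted p = 0.0179) and Spearman rho = 0.93 (exact p = 0.00223, adjusted p = 0.0670). WM 1 and WM 9 stood farthest from the median, and r was 0.82 without them. WM 25 had the lowest value of both genes and WM 9 the highest. The other 29 relations did not pass an adjusted p of 0.05. In Sham livers, Hspa1b and Hspa8 had r = 0.97 (exact p = 0.0140, adjusted p = 0.132) and rho = 0.52 (exact p = 0.197, adjusted p = 0.590), and r was 0.17 without Sham 14 and Sham 5, so that the relation rests on those samples. Hspd1 and Hspe1 had r = 0.73 in RYGB livers (exact p = 0.0449, adjusted p = 0.164), 0.27 in WM livers and -0.14 in Sham livers. Over the 45 pairs of members the median r was 0.07 within RYGB, 0.27 within WM and 0.56 within Sham, and 0.03 within Sham without Sham 14.

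HSF1, the factor that drives the heat shock response, and its relatives were tested as genes outside the set. Of the 4 tested genes of heat shock factors and their binding protein, 0 passed in the 3 comparisons with edgeR. Hsf1 averaged 4.31 CPM in RYGB livers, 3.93 CPM in WM livers and 3.56 CPM in Sham livers, with log2 fold changes of 0.28 for RYGB against Sham (edgeR adjusted p = 0.605), 0.15 for WM against Sham (adjusted p = 0.784) and 0.13 for RYGB against WM (adjusted p = 0.954). Hsf2, which can act with HSF1, averaged 47.5, 41.4 and 38.2 CPM in RYGB, WM and Sham livers, and its adjusted p was 0.241 or higher in the 3 comparisons. Messenger RNA does not show how much HSF1 protein is active. Cirbp and Rbm3, RNA-binding proteins induced by mild cold, did not pass in any comparison either.

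Some of the 16 heat-induced HSF1 targets outside the set, among them Tcp1, Hspa4l and Cryab, also stand in the families below, so the list counts overlap. Of the 16, 4 rose and 3 fell in RYGB livers against Sham, beside 23.7% of all genes called. In WM livers 5 rose and 1 fell against Sham (31.4% of all genes), and 1 fell in RYGB livers against WM livers (1.49%). Under library totals, 3 rose and 4 fell in RYGB livers against Sham, and 2 rose and 1 fell in WM livers against Sham. Bag3, which links HSP70 to small heat shock proteins and autophagy, was the one that differed between RYGB and WM livers. It averaged 13.6 ± 4.6 CPM in RYGB livers, 24.4 ± 8.7 CPM in WM livers and 22.1 ± 6.0 CPM in Sham livers (SD, n = 8 each), a log2 fold change of -0.84 ± 0.22 for RYGB against WM (edgeR adjusted p = 0.0432) and of -0.70 ± 0.22 for RYGB against Sham (adjusted p = 0.0196). With each library left out in turn, Bag3 passed for RYGB against WM in 6 of 24 fits. For WM against Sham the log2 fold change of Bag3 was 0.15 (adjusted p = 0.643). Cryab, a small heat shock protein, averaged 3.60 ± 1.12 CPM in RYGB livers, 4.58 ± 1.36 CPM in WM livers and 1.72 ± 0.86 CPM in Sham livers, and rose in both against Sham (log2 fold change 1.07, adjusted p = 0.0116, for RYGB and 1.41, adjusted p = 0.000854, for WM). Dnaja4, a J-domain protein, rose by a log2 fold change of 1.18 in RYGB livers (adjusted p = 0.00304) and 1.06 in WM livers (adjusted p = 0.00537). Hspa4l, an HSP110 protein like Hsph1, fell in both, to 25.9 ± 8.2 CPM in RYGB livers and 22.9 ± 10.6 CPM in WM livers against 47.0 ± 14.4 CPM in Sham livers (log2 fold change -0.86, adjusted p = 0.0116, and -1.04, adjusted p = 0.00210). The polyubiquitin gene Ubb rose in both (log2 fold change 0.60, adjusted p = 0.00419, for RYGB and 0.62, adjusted p = 0.00225, for WM). Hsp90ab1, the HSP90 gene expressed all the time, averaged 1745 CPM in RYGB livers, 1697 CPM in WM livers and 1347 CPM in Sham livers and did not pass (adjusted p = 0.272 for RYGB and 0.302 for WM). The chaperone adapters Chordc1 and Stip1 did not pass in any comparison, nor did the small heat shock protein Hspb8.

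From lists of textbook families, 102 other chaperone and cofactor genes were tested, 105 being in the table. In RYGB livers 17 rose and 5 fell against Sham (21.6% of the 102, beside 23.7% of all genes), in WM livers 18 rose and 8 fell against Sham (25.5%, beside 31.4%), and between RYGB and WM livers 1 rose and 1 fell (1.96%, beside 1.49%). With library totals in place of TMM the split became 5 higher and 18 lower for RYGB against Sham and 7 higher and 18 lower for WM against Sham. The median log2 fold change over the 102 genes was 0.24 for RYGB against Sham, 0.15 for WM against Sham and 0.0029 for RYGB against WM.

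The cytosolic chaperonin TRiC, which folds actin and tubulin, and its partner prefoldin rose in part: 7 of 14 tested genes in RYGB livers and 6 of 14 in WM livers against Sham, with 0 lower and 0 called between RYGB and WM. With library totals in place of TMM, 2 rose and 1 fell in each. Of all tested genes, 12.7% were called higher in RYGB livers and 16.5% in WM livers against Sham with TMM. The TRiC subunit Tcp1 averaged 54.8 ± 11.6 CPM in RYGB livers, 59.6 ± 13.3 CPM in WM livers and 31.1 ± 5.6 CPM in Sham livers (log2 fold change 0.82, adjusted p = 0.000643, for RYGB and 0.94, adjusted p = 9.51e-05, for WM). The prefoldin subunit Pfdn5 averaged 117 ± 35 CPM in RYGB livers, 128 ± 25 CPM in WM livers and 58.2 ± 15.6 CPM in Sham livers (log2 fold change 1.00, adjusted p = 0.000199, for RYGB and 1.14, adjusted p = 2.85e-05, for WM).

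Of 15 mitochondrial chaperones and proteases, the setting of Hspd1 and Hspe1, 4 rose in RYGB livers and 3 rose and 1 fell in WM livers against Sham. Of all tested genes, 12.7% were called higher and 11% lower in RYGB livers, and 16.5% higher and 15% lower in WM livers. With library totals in place of TMM, 1 rose and 1 fell in RYGB livers, and 2 rose and 4 fell in WM livers. Grpel1, the exchange factor of mitochondrial HSP70, averaged 141 ± 28 CPM in RYGB livers, 158 ± 36 CPM in WM livers and 80.8 ± 9.3 CPM in Sham livers (log2 fold change 0.80, adjusted p = 0.000252, for RYGB and 0.97, adjusted p = 1.62e-05, for WM). The protease subunit Clpp rose as well, with log2 fold changes of 0.76 in RYGB livers (adjusted p = 0.00334) and 0.91 in WM livers (adjusted p = 0.000400). Clpx, its unfolding partner, differed between RYGB and WM livers, at 126 ± 68 CPM in RYGB livers, 37.0 ± 16.5 CPM in WM livers and 96.5 ± 35.3 CPM in Sham livers. Its log2 fold change was 1.77 ± 0.30 for RYGB against WM (adjusted p = 0.00103) and -1.38 ± 0.30 for WM against Sham (adjusted p = 0.000840).

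The remaining families were mixed, and their splits changed with library totals in place of TMM. Under those totals the J-domain list split into 1 higher and 9 lower for RYGB against Sham and 2 higher and 7 lower for WM against Sham, the HSP90 list into 0 higher and 3 lower in each, and the endoplasmic reticulum list into 2 higher and 2 lower for RYGB against Sham and 3 higher and 4 lower for WM against Sham. The other HSP70 and HSP110 genes had 0 higher under them, with 2 lower for RYGB against Sham and 3 for WM against Sham. With TMM, 12.7% of all tested genes were called higher and 11% lower in RYGB livers against Sham, and 16.5% and 15% in WM livers. Of 31 other J-domain proteins, 5 rose and 3 fell in RYGB livers and 4 rose and 3 fell in WM livers against Sham, with Dnajc12 among those that rose (log2 fold change 0.81, adjusted p = 0.00431, and 1.01, adjusted p = 0.000400) and Dnajb14 among those that fell (-0.81, adjusted p = 0.000366, and -0.78, adjusted p = 0.000339). Of 19 HSP90 paralogs and partners, 1 rose in RYGB livers, and 3 rose and 2 fell in WM livers, with the cochaperone Sugt1 higher in both (log2 fold change 0.59, adjusted p = 0.00388, and 0.69, adjusted p = 0.000719). Of 11 exchange factors and partners of HSP70, 1 rose and 1 fell in RYGB livers, and 2 rose and 1 fell in WM livers. Of 7 other HSP70 and HSP110 genes, 1 fell in each (Hspa4l), and of 4 other small heat shock proteins, 1 rose in each (Cryab). Of 16 chaperones of the endoplasmic reticulum, 5 rose and 1 fell in RYGB livers, and 5 rose and 2 fell in WM livers. The BiP partner Dnajb9 averaged 20.7 ± 10.0 CPM in RYGB livers and 52.9 ± 33.1 CPM in WM livers, a log2 fold change of -1.36 ± 0.33 (adjusted p = 0.0285), and was the one gene of that list called between them. It passed in 16 of 24 fits with a library left out.

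**Figure D4:**
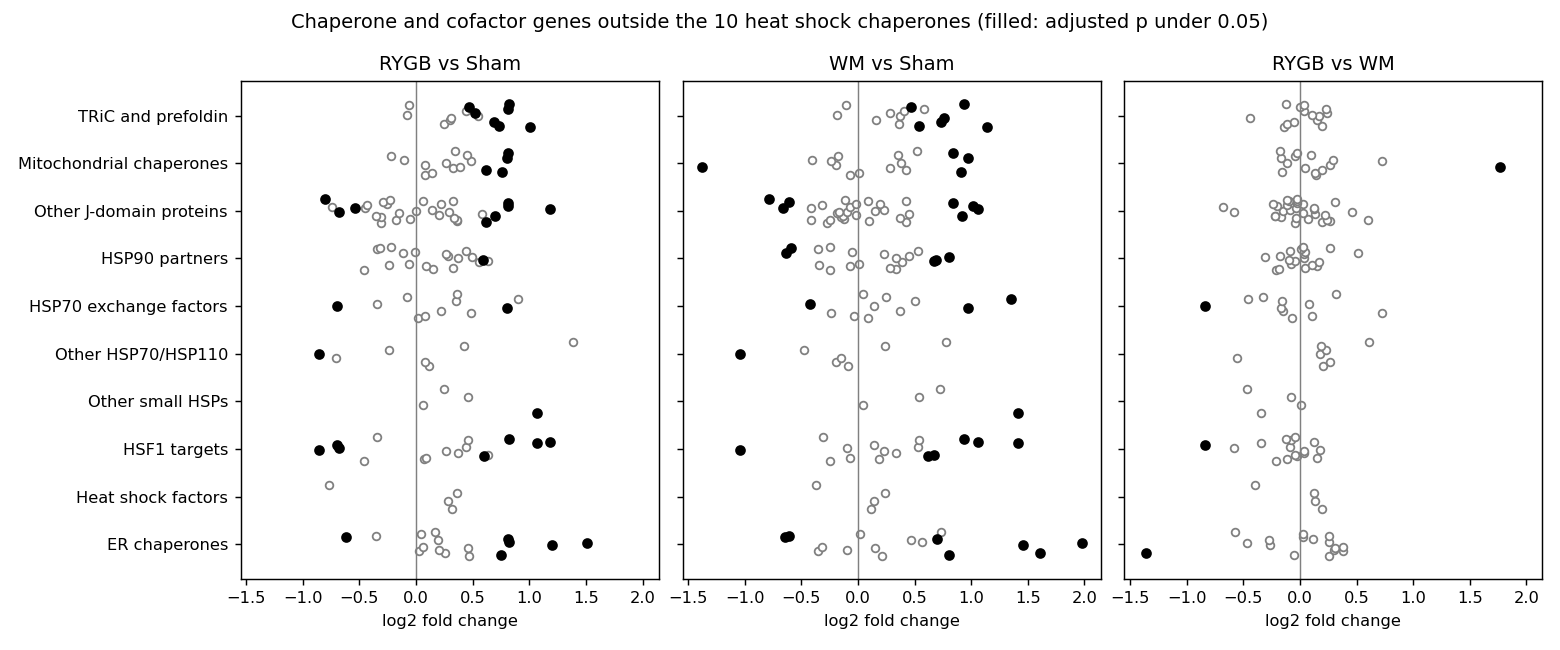
The log2 fold change (horizontal axis) of each tested chaperone or cofactor gene outside the 10 is plotted by family (rows) for RYGB against Sham, WM against Sham and RYGB against WM; filled points have an adjusted p under 0.05. Called TRiC and prefoldin genes lie to the right of 0 against Sham, while the J-domain row has called genes on both sides. With library totals in place of TMM, the 102 genes of all rows but that of ER chaperones split into 5 higher and 18 lower for RYGB against Sham.

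Genes of the circadian clock were called in all 3 comparisons. In RYGB livers against WM livers, 2 of 18 tested clock genes rose and 5 fell, beside 1.49% of all genes called. With library totals 1 rose and 6 fell. In WM livers against Sham, 6 rose and 3 fell, beside 31.4% of all genes, and 4 rose and 4 fell with library totals. In RYGB livers against Sham, 2 rose and 2 fell, beside 23.7% of all genes, and 1 rose and 6 fell with library totals. Arntl, which drives the clock in the positive limb, averaged 8.95 ± 7.16 CPM in RYGB livers and 1.20 ± 0.83 CPM in WM livers (log2 fold change 2.89 ± 0.51, adjusted p = 0.00138), against 4.90 ± 2.34 CPM in Sham livers. Per2, a repressor in its negative limb, averaged 6.68 ± 3.08 CPM in RYGB livers and 25.6 ± 13.4 CPM in WM livers (log2 fold change -1.94 ± 0.37, adjusted p = 0.00310), against 11.8 ± 8.3 CPM in Sham livers. For WM against Sham the log2 fold change was -2.03 for Arntl (edgeR adjusted p = 0.00265) and 1.12 for Per2 (adjusted p = 0.0172). The part of the clock in the members' differences was not tested. Of 20 tested immediate early genes, which respond within minutes to handling and stress, 2 rose and 0 fell in RYGB livers against WM livers, with Egr1 at 37.0 ± 41.6 CPM in RYGB livers, where 1 liver reached 137 CPM, and 10.1 ± 4.3 CPM in WM livers (log2 fold change 1.88 ± 0.40, adjusted p = 0.00901). Without RYGB 18, the log2 fold change of Egr1 was 1.17 and it still passed. Against Sham, 2 of these 20 rose and 5 fell in RYGB livers, beside 23.7% of all genes called. In WM livers 1 rose and 5 fell against Sham, beside 31.4% of all genes. Under library totals, 0 rose and 7 fell in RYGB livers, and 0 rose and 11 fell in WM livers.

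The genes whose levels followed the members most closely from liver to liver were found by correlating each tested gene, centred within its group, with the mean of the 10 centred and scaled members over the 24 libraries, as a description that shares depth and scaling between genes. The highest were Keg1 (r = 0.81), Ikbkg (0.81), Yap1 (0.79), LTO1 (0.76), Ahsa2 (0.75), Uvrag (0.75), Atp2a2 (0.74) and Creld2 (0.73). Without Sham 14 these values were 0.70 for Keg1, 0.75 for Ikbkg, 0.73 for Yap1, 0.67 for LTO1, 0.78 for Ahsa2, 0.71 for Uvrag, 0.61 for Atp2a2 and 0.70 for Creld2. Among the members themselves, Hspa8 followed the mean of the other 9 most closely (r = 0.86, and 0.71 without Sham 14) and Hspb1 did not follow it (r = -0.03, and -0.21 without Sham 14).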

How the data were processed

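RNA from 24 frozen mouse livers was read as 50-base QuantSeq 3′ reads, per the labels' protocols. The authors deposited a table of whole-number counts per Ensembl gene and a table of normalized signal, in which each value is the deposited count over 1 size factor per library (largest relative deviation 5e-15). R 4.1.2 and DESeq2 1.34 are named in the submitters' processing notes. Not given in the sources used here are the aligner, build, annotation, strand setting and handling of multiply matching reads. Gene names came from the deposited table (13343 genes) or a table of Ensembl names (1616); 36 genes had none. All 84 pairs of libraries within a group differed beyond sampling noise (chi-square over degrees of freedom 28.1 to 621).

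The tests used edgeR 4.0.16 under R 4.3.3: filterByExpr over the groups (13121 of 14995 genes), TMM scaling, 1 quasi-likelihood fit to all 24 libraries without covariates (common biological coefficient of variation 0.398), F-tests of the 3 group differences and Benjamini-Hochberg adjustment over all tested genes, with calls at an adjusted p under 0.05. The code was tested on simulated data. Log2 CPM used a prior count of 2. Alternatives were DESeq2 1.42.0, limma-voom with a quality weight per library, and limma-trend (limma 3.58.1, log2 of the deposited signal plus 1). Others were trends on length and GC content fitted with mgcv 1.9.3, other scalings, filters, sets of libraries and each library left out. The members and the gene lists were chosen with earlier results of these data known. The lists were written from textbook knowledge and not picked for how their genes moved. From each list, up to 2 called genes per direction and comparison with the smallest p may be named. So may every heat shock factor, HSF1 target and cold-induced gene, and the 8 genes most like the members.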

Additional observations from a re-analysis of the deposited data

Results flagged for a closer look

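In each of 30 sets of 8 livers (10 genes in 3 groups), the highest and the lowest library were examined. A library stood apart in 6 sets, its gap to the next being more than 0.526 of the range, and all 6 were the highest. For normally distributed values, chance gives this at either end in about 1 in 20 sets. CPM without logs was used and its distribution was not checked, so that rate is a rough guide. Sham 14 held 5 of the 6. It had 4.25 CPM of Hspa1a against 0.965 CPM in the next Sham liver, 33.1 CPM of Hspa1b against 3.02 CPM, 494 CPM of Hspa8 against 205 CPM, 112 CPM of Hsph1 against 69.5 CPM, and 50.7 CPM of Dnajb1 against 22.1 CPM. The inducible HSP70 genes, the constitutive one, the HSP110 gene and the J-domain partner were thus high together in 1 control liver. The sixth was Hspb1 in WM 25, at 29.9 CPM against 13.7 CPM in the next WM liver; WM 25 had the lowest Hspa1b and Dnaja1 of the WM livers. The 6 flags are not independent, since 5 come from 1 library, and no cause was tested.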

How the results depend on the processing

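The member differences that passed the threshold in the fit reported kept their sign under the alternatives run. Hspa1b for RYGB against Sham, which did not pass in it, passed as higher without Sham 14. Hspb1, which did not pass either, passed as lower against Sham in both groups under limma-voom with quality weights and without Sham 2. With the correction for length and GC content it passed as lower for WM against Sham. Hspa1a passed as higher for WM against Sham under limma-voom with quality weights. For RYGB against WM it passed as lower under DESeq2 and with the correction for length and GC content, which gave 3 members each. No paired analysis was possible because the groups share no label numbers. Leaving out each library in turn gave 1 to 5 members past the threshold for RYGB against Sham, 6 to 7 for WM against Sham and 1 to 2 for RYGB against WM. It gave 2648 to 3514, 3645 to 4299 and 136 to 257 genes past it in the same order of comparisons, and 18 to 27, 23 to 31 and 1 to 2 of the other chaperone genes. For RYGB against Sham, limma-voom with quality weights called 5018 genes and 35 other chaperone genes. Leaving out Sham 14, Sham 17, RYGB 18 and RYGB 19, chosen after seeing the data, called 2046 genes and 6 members. For RYGB against WM, DESeq2 called 357 genes, the fit of these 2 groups alone 121 genes and 1 other chaperone gene, and the correction for length and GC content 373 genes and 4 other chaperone genes. Library totals, no filter, limma-voom with quality weights, and leaving out Sham 17, RYGB 18 and RYGB 19 each left 1 member for RYGB against WM, Hspa1b. With the correction for length and GC content Hspe1 did not pass against Sham in either group. Of the 17 genes outside the set whose changes are named, those past the threshold kept their direction throughout. Calls lost included, with library totals, Ubb and Sugt1 against Sham in both groups, Clpp and Dnajc12 in RYGB livers, and Dnaja4 and Per2 in WM livers. With the length and GC correction they included Ubb, Hspa4l and Dnajb14 in both groups and Cryab in RYGB livers. Without the 4 libraries above, Hspa4l, Ubb and Clpp no longer passed for RYGB against Sham. For RYGB against WM, Dnajb9 was lost under 4 alternatives and Bag3 under 2. Hspa1a rests on 86 counts or fewer per library. The causes were not tested.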
